A study of Mus musculus with 4 samples.

Results

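The 10 genes described here encode histone H3.3 and the proteins that carry it onto DNA. They were taken by symbol, for their known roles: H3f3a and H3f3b encode H3.3, Hira, Ubn1, Ubn2 and Cabin1 encode the HIRA complex, Asf1a and Asf1b encode the ASF1 chaperones, and Daxx and Atrx encode the DAXX-ATRX pair. All 10 were found among the 23309 genes of the deposited table, and all 10 were among the 10766 genes whose mean reached 1 FPKM (read fragments scaled to transcript length and library size). RNA was sequenced from mouse embryonic stem cells of strain 129/Ola that were wild type or carried a mutation of both Chd2 alleles (genotype Chd2 mut/mut, named Chd2KO in the titles), with 2 libraries per genotype and no treatment named in the labels. Both genotypes shared their culture conditions, on gelatin in serum medium with leukemia inhibitory factor. The labels do not say how the mutation was made or how many clones carry it.

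The nucleosome core holds histone H3 in a replication-coupled form, made in S phase from clustered genes, or as H3.3, which is made throughout the cell cycle from separate genes. New H3-H4 dimers pass through ASF1, which hands them to CAF-1 at replication forks or to HIRA outside replication. HIRA places H3.3 at active genes and promoters, while DAXX binds H3.3 and, with the remodeler ATRX, places it at telomeres, pericentric heterochromatin and silenced retroelements. In embryonic stem cells H3.3 is known for marking both active genes and bivalent promoters. Chd2 encodes a chromatin remodeler that has been linked to H3.3 deposition, and the design text of the series lists H3.3 and total H3 among the chromatin features that the study profiled; those profiles were not analysed here. The RNA comparison asks whether the genes for H3.3 and its chaperones are themselves expressed at another level in the mutant.

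The coding sequences of the H3.3 genes are shown because both encode the same protein, so reads from the coding part can be assigned only by bases that differ. The translations of H3f3a and H3f3b were identical over 136 residues, while their coding sequences of 411 bases differed at 95 bases, in 83 of 137 codons, the stop codon included. Of these differences, 81 lay at the last base of a codon. The longest stretch without a difference was 23 bases, and no 50-base word of the H3f3a coding sequence occurred in that of H3f3b. The first 300 coding bases of each, 5′ to 3′ from the start codon, are given with the 72 bases that differ in capitals, from GENCODE M21 transcripts.
H3f3a: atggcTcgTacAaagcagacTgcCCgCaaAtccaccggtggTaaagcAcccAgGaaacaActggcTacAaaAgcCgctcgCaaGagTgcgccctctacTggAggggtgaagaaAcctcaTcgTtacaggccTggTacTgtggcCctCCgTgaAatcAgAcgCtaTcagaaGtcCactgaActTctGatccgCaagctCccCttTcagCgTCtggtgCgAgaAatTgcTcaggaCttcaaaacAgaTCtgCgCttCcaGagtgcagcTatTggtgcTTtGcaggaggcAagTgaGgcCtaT
H3f3b: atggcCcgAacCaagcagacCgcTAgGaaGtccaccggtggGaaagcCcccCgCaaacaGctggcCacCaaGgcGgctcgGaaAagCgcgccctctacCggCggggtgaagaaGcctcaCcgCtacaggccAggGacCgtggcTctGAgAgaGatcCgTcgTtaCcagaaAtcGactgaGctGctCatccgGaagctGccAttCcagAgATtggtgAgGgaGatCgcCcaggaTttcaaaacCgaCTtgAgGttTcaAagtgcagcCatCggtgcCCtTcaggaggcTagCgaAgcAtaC

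H3.3 differs from the replication-coupled H3 encoded by Hist1h3a at 5 residues, numbered 31, 87, 89, 90 and 96 without the first methionine. Both stretches that hold them are shown because they are what the chaperones and modifying enzymes tell apart: residue 31 lies in the tail and residues 87, 89 and 90 lie in the core helix that DAXX and UBN1 recognise. Capitals mark the codons of these residues.
H3f3a, residues 28 to 36: agtgcgcccTCTactggaggggtgaag
H3f3b, residues 28 to 36: agcgcgcccTCTaccggcggggtgaag
Hist1h3a, residues 28 to 36: agcgccccgGCCaccggcggcgtgaag
H3f3a, residues 84 to 99: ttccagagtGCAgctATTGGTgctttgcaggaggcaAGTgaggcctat
H3f3b, residues 84 to 99: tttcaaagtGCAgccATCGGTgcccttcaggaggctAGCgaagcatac
Hist1h3a, residues 84 to 99: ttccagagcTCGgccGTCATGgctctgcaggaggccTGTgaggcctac

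The deposited table holds 1 FPKM value per gene and genotype, so each value below is the authors' own and carries no standard deviation. How the libraries of a genotype were combined is not stated. The library depth is unknown. Over all genes, FPKM summed to 806390 for wild type and 809413 for the mutant. Chd2 itself was at 10.2 FPKM in wild-type cells and 5.69 FPKM in mutant cells, or 55.9% of the wild-type level. It fell with a q-value of 0.0103 in the authors' deposited table. Since the site of the mutation is not stated, the RNA left does not show how much intact transcript remained. Of 10 markers of pluripotent stem cells all were expressed, with Dppa5a at 3844 and 4379.6 FPKM in wild type and mutant, Pou5f1 at 1032 and 1071 FPKM and Utf1 at 694 and 615 FPKM. The largest differences in the list, named after their values were seen, were those of Nanog at 114 and 150.1 FPKM (1.31-fold) and Sox2 at 178 and 222 FPKM (1.25-fold). The 10 markers summed to 6601 and 7232 FPKM, 8 of them had the higher value in the mutant with a median change of 0.15 in log2(FPKM + 1), 9 lay above the median of genes within 2-fold of their level and 0 were called. Whether this moved any value given here was not tested. The 8 fibroblast markers summed to 14.7 and 11.8 FPKM, of which Thy1 gave 14.2 and 11.5 FPKM, and Col3a1, Lum and Postn were listed at 0 in both genotypes. In such bulk RNA, fewer cells that express a gene and less of its RNA per cell cannot be told apart.

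None of the genes for H3.3 and its chaperones was called as different between the genotypes. In the authors' deposited table none of the 10 genes (0 of 10) passed a q-value of 0.05, and their q-values ran from 0.877 for H3f3b to 0.998. The background of called genes was 0.697% of the 10766 genes (75 genes). The table gives q-values and no unadjusted p-values, and which test gave them is not known from the labels. The titles number the libraries of each genotype as lot 1 and lot 2. Nothing in the labels says what a lot is, whether the lots of a genotype are separate cultures or whether the same number in both genotypes marks shared handling, so these q-values may rest on technical spread alone. The smallest change that was called among the 10766 genes was 1.42-fold, and the largest change among the 10 genes was 1.17-fold. Differences of the size seen in these genes were thus below any that the deposited test called. At least a 1.2-fold difference in either direction, a limit chosen after the values were seen, was found for 0 of the 10 genes and for 18.2% of the 10766 genes.

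The levels of the 10 genes spanned more than 2 orders of magnitude, and their order was the same in both genotypes. H3f3a came first, followed by H3f3b, Daxx, Asf1b, Hira, Asf1a, Atrx, Cabin1, Ubn1 and Ubn2. The largest step was that from H3f3b to Daxx, which was 7.38-fold in wild type and 6.69-fold in the mutant. Neighbours in this order were close for Daxx over Asf1b (1.05-fold and 1.13-fold in wild type and mutant), Hira over Asf1a (1.11-fold and 1.04-fold) and Asf1a over Atrx (1.06-fold and 1.09-fold). With 1 value per genotype it could not be tested whether these neighbours differ beyond their spread.

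**Figure D1:**
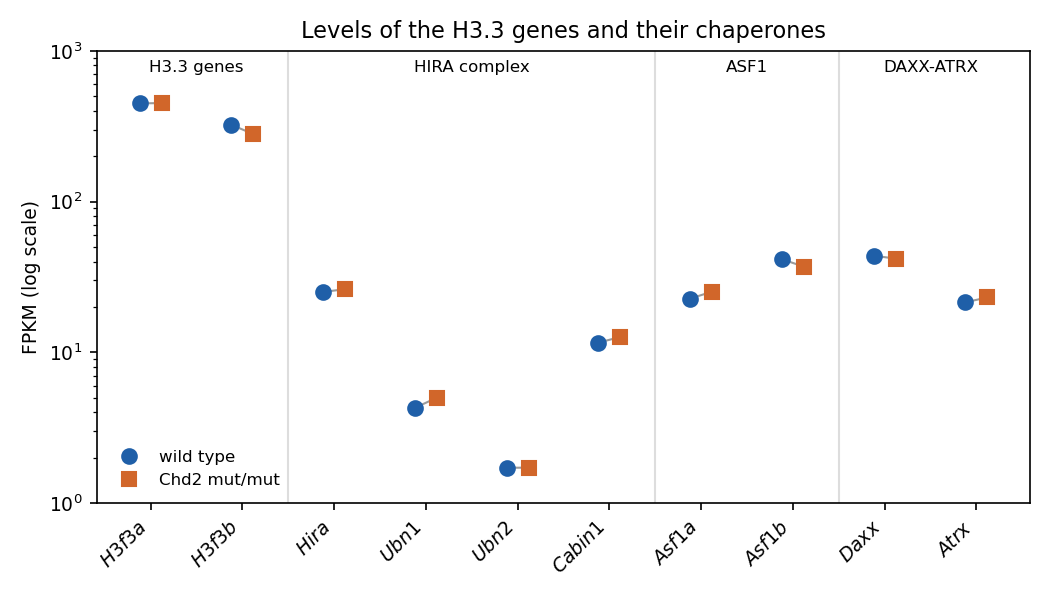
Levels of the 10 genes in wild type (circles) and Chd2 mut/mut (squares), in FPKM on a log scale, grouped by role, with 1 deposited value per gene and genotype and no error bars. The H3.3 genes lie between 280 and 449.8 FPKM, all chaperone genes lie below 44 FPKM, and the values of each gene nearly coincide.

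The H3.3 genes showed unequal values. H3f3a was at 448 FPKM in wild-type cells and 449.8 FPKM in mutant cells, a ratio of 1.005. H3f3b was at 323 FPKM in wild-type cells and 280.01 FPKM in mutant cells, or 86.7% of the wild-type level. No other of the 10 genes differed by as much on the lower side, and H3f3b was not called in the authors' deposited table (log2 ratio -0.21, q-value 0.877). H3f3b made up 41.9% of the summed FPKM of both genes in wild type and 38.4% in the mutant. Their sum was 770.45 FPKM in wild-type cells and 729.8 FPKM in mutant cells, so the mutant value was 94.7% of the wild-type value.

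Replication-coupled H3 genes had very low values. Their 12 listed genes summed to 5.20 FPKM in wild-type cells and 2.63 FPKM in mutant cells, and 1 of them, Hist1h3a, reached a mean of 1 FPKM, with values of 1.132 and 1.135 FPKM. Hist1h3b and Hist2h3b were listed at 0 in both genotypes, and 6 of the 12 genes were listed at 0 in the mutant against 2 in wild type. Those at 0 in the mutant alone were at 0.18 to 0.63 FPKM in wild type, near the floor. None of the 12 was called, so neither these counts nor the lower sum can be read as a loss in the mutant. These transcripts end in a stem-loop without a poly(A) tail, and the labels do not say whether the libraries were selected for poly(A), so their level relative to H3f3a and H3f3b cannot be read as that of the proteins.

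The HIRA complex genes had equal or somewhat higher values in the mutant, and none was called. Hira, the scaffold that names the complex, was at 25.2 FPKM in wild-type cells and 26.2 FPKM in mutant cells, 4.32% above the wild-type value. Cabin1, a large subunit, was at 11.6 and 12.6 FPKM in wild type and mutant, 9.08% above. Ubn1, the ubinuclein subunit that binds H3.3, was at 4.28 and 5.01 FPKM, 16.9% above, with a q-value of 0.894 in the authors' deposited table. No other of the 10 genes differed by as much on the higher side. Ubn2, the second ubinuclein gene, was at 1.716 FPKM in wild-type cells and 1.72 FPKM in mutant cells, a ratio of 1.002.

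All 4 HIRA complex genes thus lay above 0, with a median change of 0.09 in log2(FPKM + 1), and the background of genes above 0 was 49.6%. This background varied with level. It was 57.8% at a mean of 1 to 5 FPKM, where Ubn1 and Ubn2 lie, 55.2% at 5 to 20 FPKM (Cabin1) and 40.4% at 20 to 100 FPKM (Hira). The sign of Ubn2 turned to -0.0018 when both genotypes were scaled to the same sum and to -0.018 after quantile normalization, so its direction rests on the scaling. Within the complex the subunit genes stood at unequal levels. Hira was 2.169-fold over Cabin1 in wild type and 2.07-fold in the mutant, and it was 5.87-fold and 5.24-fold over Ubn1. Ubn1 was 2.495-fold over Ubn2 in wild type and 2.91-fold in the mutant. The translations of Ubn1 and Ubn2 shared 44.1% of 1089 aligned residues.

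The ASF1 genes lay on opposite sides. Asf1a, the paralog that works with HIRA, was at 22.7 FPKM in wild-type cells and 25.3 FPKM in mutant cells, 11.4% above the wild-type value. Asf1b, the paralog tied to proliferation, was at 41.5 FPKM in wild-type cells and 37.0 FPKM in mutant cells, or 89.2% of the wild-type value. Neither was called, with q-values of 0.971 and 0.959 in the authors' deposited table. Asf1b made up 64.6% of their summed FPKM in wild-type cells and 59.4% in mutant cells. The sum itself was 64.2 and 62.3 FPKM in wild type and mutant. The translations of Asf1a and Asf1b shared 72.3% of 202 aligned residues.

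Daxx and Atrx had differences on opposite sides, and neither was called. Daxx, the H3.3-specific chaperone, was at 43.7 FPKM in wild-type cells and 41.9 FPKM in mutant cells, or 95.7%. Atrx, the SNF2-type remodeler encoded on the X chromosome, was at 21.5 and 23.1 FPKM in wild type and mutant, 7.70% above the wild-type value. Both had a q-value of 0.998 in the authors' deposited table. Daxx was 2.04-fold over Atrx in wild type and 1.81-fold in the mutant. The sum of both genes was 65.2 FPKM in wild-type cells and 64.99 FPKM in mutant cells.

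Across the 10 genes, 7 had a higher value in the mutant (6 where Ubn2 changed sign with the scaling) and 3 had a lower one. Their median change was 0.03 in log2(FPKM + 1), against -0.0012 over the 10766 genes. The 3 lower genes were H3f3b, Daxx and Asf1b, which follow H3f3a in the order of levels. Over all genes the change itself varied with level. Its median was 0.03 for the 3266 genes with a mean of 1 to 5 FPKM, -0.03 for the 2798 genes at 20 to 100 FPKM and -0.08 for the 794 genes at 100 to 500 FPKM, where 23.9% of genes lay above 0. It was -0.01 for the 221 genes at 500 FPKM or more. Each of the 10 genes was therefore also set beside the genes within 2-fold of its own mean FPKM, a comparison added after the data were seen.

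At their own level the H3.3 genes lay on opposite sides of their neighbours. The 504 genes near the level of H3f3b had a median change of -0.08 and a middle 50% from -0.14 to -0.01, and H3f3b lay below it at -0.205. An absolute change at least as large was found in 14.3% of them. H3f3a, at 0.0072, lay above the middle 50% of its 339 neighbours, which ran from -0.13 to -0.01. An absolute change at least as large was found in 96.5% of these 339. Relative to the median of their neighbours, H3f3b was at -0.12 and H3f3a at 0.08. The size of the H3f3a change rests on the scaling. It was 0.0019 with both genotypes scaled to the same sum, 0.076 after quantile normalization and 0.048 with the upper quartiles set equal. H3f3b was then at -0.21, -0.14 and -0.16. For both genes 3 neighbours were called, and the smallest called change there was 1.504-fold.

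**Figure D2:**
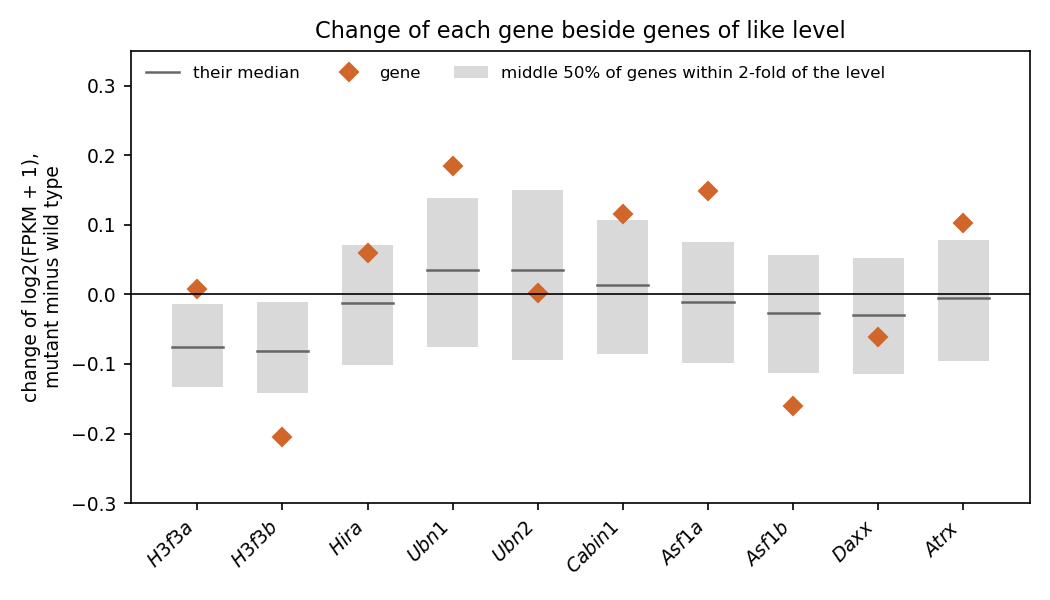
Change of log2(FPKM + 1), mutant minus wild type, for each of the 10 genes (diamonds), beside the middle 50% (grey bars) and the median (grey lines) of the genes within 2-fold of its mean FPKM. The bars of H3f3a and H3f3b lie below 0, with H3f3a above its bar at 0.0072 and H3f3b below its bar at -0.205, and Asf1a and Asf1b lie on opposite sides of theirs.

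The chaperone genes lay on either side of genes at their level. Asf1a was 0.16 above the median of genes at its level and Asf1b was at -0.13 relative to its own. Ubn1 was 0.15 above, Atrx 0.11, Cabin1 0.10 and Hira 0.07. Daxx was at -0.03 and Ubn2 at -0.03, both inside the middle 50% of their neighbours, as was Hira. By this measure 6 of the 10 genes lay above genes of like level and 4 below, with a median of 0.077, and 3 of the 4 HIRA complex genes lay above.

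**Figure D3:**
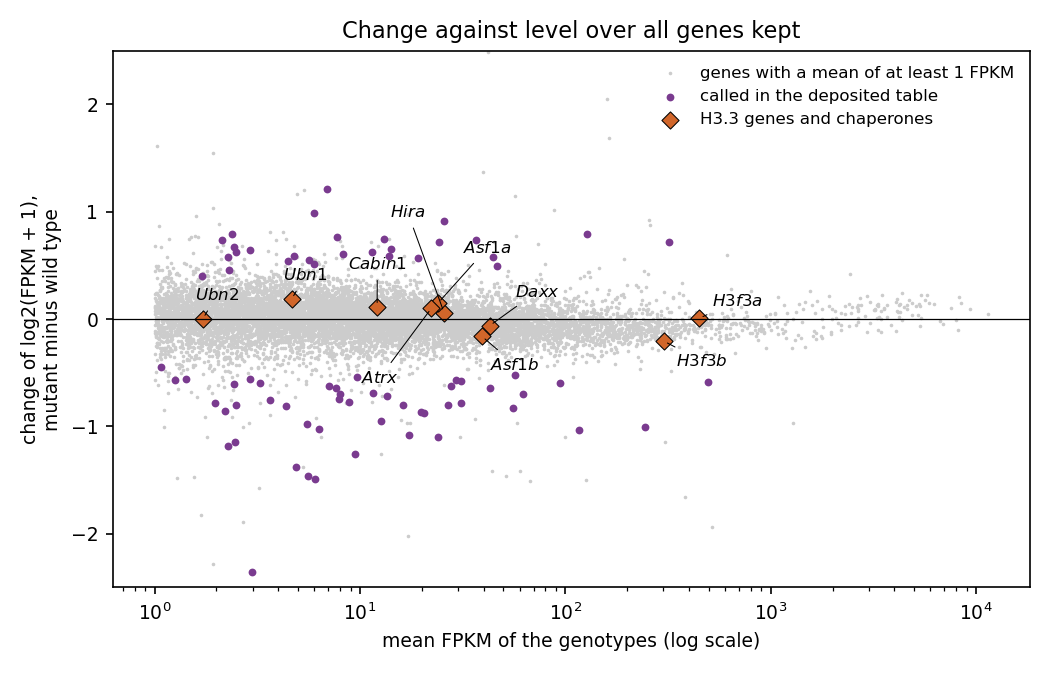
Change of log2(FPKM + 1), mutant minus wild type, against mean FPKM (log scale) for the 10766 genes whose mean reached 1 FPKM, without 51 genes that lie beyond 2.5 on the vertical axis. The 10 genes (diamonds) lie between -0.205 and 0.185, among the uncalled genes (grey), while every called gene drawn (purple points) lies outside that range.

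Sequence features of the 10 genes bear on how well reads can be assigned to them. All 10 were matched by symbol to GENCODE M21 on GRCm38, and coordinates are left out since the deposited table was made on mm9. Hira and Ubn1 lie on chromosome 16, Asf1a and Cabin1 on chromosome 10, and the others on chromosomes 1 (H3f3a), 11 (H3f3b), 6 (Ubn2), 8 (Asf1b), 17 (Daxx) and X (Atrx). For the transcript with the longest coding sequence, 50-base words that also occur in annotated transcripts of other genes were counted. They made up 30.3% of all words of the H3f3a transcript and 92.8% of its coding words. Over the whole transcript, where 845 words were shared, they were shared with 41 other genes, of which 38 are processed pseudogenes. The gene with the most was no pseudogene but the noncoding gene Gm17275, which overlaps H3f3a on the opposite strand. It shared 595 words, and no pseudogene shared more than the 245 of H3f3c. For H3f3b they made up 8.40% of all words and 46.4% of the coding words, and 3 other genes shared words with its transcript. For Hira they made up 64.4% of all words and 89.5% of the coding words, shared with 1 overlapping gene model. The 3 pseudogenes named after H3f3a or H3.3 were aligned to it: H3f3c, H3f3a-ps2 and H3f3a-ps1 differed from its coding sequence at 4, 5 and 7 aligned bases and from that of H3f3b at 97, 97 and 93. These 3 copies are no rows of the deposited table. Other pseudogenes, which were not aligned, shared as many words, such as Gm12657 with 210 against 200 for H3f3a-ps2. Gm12657 is listed and was at 1.41 and 1.04 FPKM in wild type and mutant. It is 1 of 3 listed genes that shared words with H3f3a. The highest of the 3 was the protein-coding gene Smpd4, with 39 shared words and 30.7 and 28.7 FPKM in wild type and mutant. The labels give neither the read length nor the treatment of reads that map to several places, so the levels of H3f3a and H3f3b are uncertain. For Hira and Asf1a the shared words come from a gene that overlaps them at the same place. How reads in such an overlap were assigned is not stated, so their levels are uncertain as well.

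Overlapping genes touched Hira and Asf1a most. A gene model on the same strand, Gm28539, covered 65.9% of the Hira transcript, and Mcm9 on the opposite strand covered 68.8% of the Asf1a transcript. Gm28539 is no row of the deposited table. Of all words of the Asf1a transcript 65.8% were shared, and Mcm9 was the only gene that shared them. Mcm9, a helicase gene of DNA repair, was at 2.36 FPKM in wild-type cells and 2.22 FPKM in mutant cells, well below Asf1a. The labels do not say that the counting used strand, so reads of Asf1a and Mcm9 cannot be told apart in the shared part. The noncoding gene Gm17275 on the opposite strand covered 22.5% of the H3f3a transcript. The transcripts counted for Ubn1, Cabin1, Asf1b, Daxx and Atrx shared no 50-base word with an annotated transcript of another gene. Annotated coding transcripts of Ubn2 ran from 3453 to 14644 bases, the widest range in bases among the 10 genes. Relative to the shortest transcript the range was wider for others, such as Cabin1 (361 to 7417 bases) and Atrx (642 to 10275 bases). The FPKM of a gene with several transcripts depends on which of them was used.

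The start regions of the 10 genes were rich in CpG. In the window from 250 bases before to 50 bases after the annotated start (RefSeq, GRCm38), the ratio of observed to expected CpG was at least 0.6, a usual limit for CpG islands, in 9 of the 10 genes and in 36.5% of 27025 promoters. Atrx was just under that limit at 0.583, and Ubn1 had the highest ratio at 1.08. The 27025 promoters were taken whether or not their genes are expressed in these cells, while all 10 genes are. The share among expressed genes was not computed, so the ratio cannot be called particular to these genes. No promoter occupancy was analysed here, so this is a description of the windows only.

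The other genes of histone supply are given from lists made by function, and a call is that of the authors' deposited table. Of the 10766 genes 0.697% were called and 50.4% lay below 0. The share above 0 was 40.4% at a mean of 20 to 100 FPKM and 23.9% at 100 to 500 FPKM, so counts below 0 depend on level. Replication-coupled H3-H4 chaperones had no call among 14 genes, and 11 of them lay below 0, with a median change of -0.10. Nasp, which keeps a soluble pool of H3-H4, was at 280.05 and 249.6 FPKM in wild type and mutant, the largest difference of this list. Pcna, the sliding clamp at the fork, was at 715 and 696 FPKM in wild type and mutant, and Hat1, which acetylates new H4, was at 315 and 291 FPKM. Tlk1, a kinase of ASF1, was on the other side, at 16.8 and 18.8 FPKM. Asf1b, described above, lay on the same side as Nasp and Hat1. Relative to genes of like level the median of the list was -0.05, with 9 of 14 genes below, so the size of the list's median depends on the level of its genes.

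Transcription-coupled and general histone chaperones had no call among 18 genes, with 13 below 0 and a median of -0.09. The FACT subunit gene Ssrp1 was at 213 and 189.5 FPKM in wild type and mutant, Nap1l4 at 86.2 and 77.9 FPKM, Nap1l1 at 896 and 816 FPKM and Set at 967 and 887 FPKM. Npm1, the most abundant gene of the list, was at 3301 and 3314 FPKM. Relative to genes of like level the median of the list was -0.05, with 12 of 18 genes below. No gene of either chaperone list differed by 1.2-fold or more.

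Remodelers and partners of H3.3 deposition held 1 call among 13 genes, Chd2 itself. Of the 13, 5 lay above 0 and 8 below, with a median of -0.02 that turned to 0.02 with the upper quartiles set equal. Ruvbl1 and Ruvbl2, ATPases of the EP400 and INO80 complexes, were at 158 and 136 FPKM and at 235 and 214 FPKM in wild type and mutant. Rpa1, the single-strand binding protein that HIRA contacts, was at 141 and 129 FPKM. Srcap was also in this list and did not match a symbol of the table.

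Partners of DAXX-ATRX in heterochromatin had no call among 17 genes that reached a mean of 1 FPKM, with 8 above 0, 9 below and a median of -0.02. The corepressor gene Trim28 was at 1044 FPKM in wild-type cells and 973 FPKM in mutant cells, and the HP1 genes Cbx1 and Cbx3 were at 218.8 and 219 FPKM and at 217 and 209 FPKM. The telomere protein gene Terf2 was at 13.8 and 15.6 FPKM. The direction of this list's median depended on the scaling, since it was 0.0085 after quantile normalization and 0.02 with the upper quartiles set equal.

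Genes of other replacement and variant histones had no call among 8, with 2 above 0, 6 below and a median of -0.09. H2afz, which encodes H2A.Z, was at 2055 and 1891 FPKM in wild type and mutant, H2afx at 312 and 359.95 FPKM and H2afv at 61.3 and 59.1 FPKM. H2afy, which encodes macroH2A1, was at 39.8 and 50.4 FPKM with a q-value of 0.474, and H2afy2, for macroH2A2, was at 2.74 and 1.80 FPKM with a q-value of 0.835 in the authors' deposited table. These were the genes of this list that differed by more than 1.2-fold, in opposite directions.

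**Figure D4:**
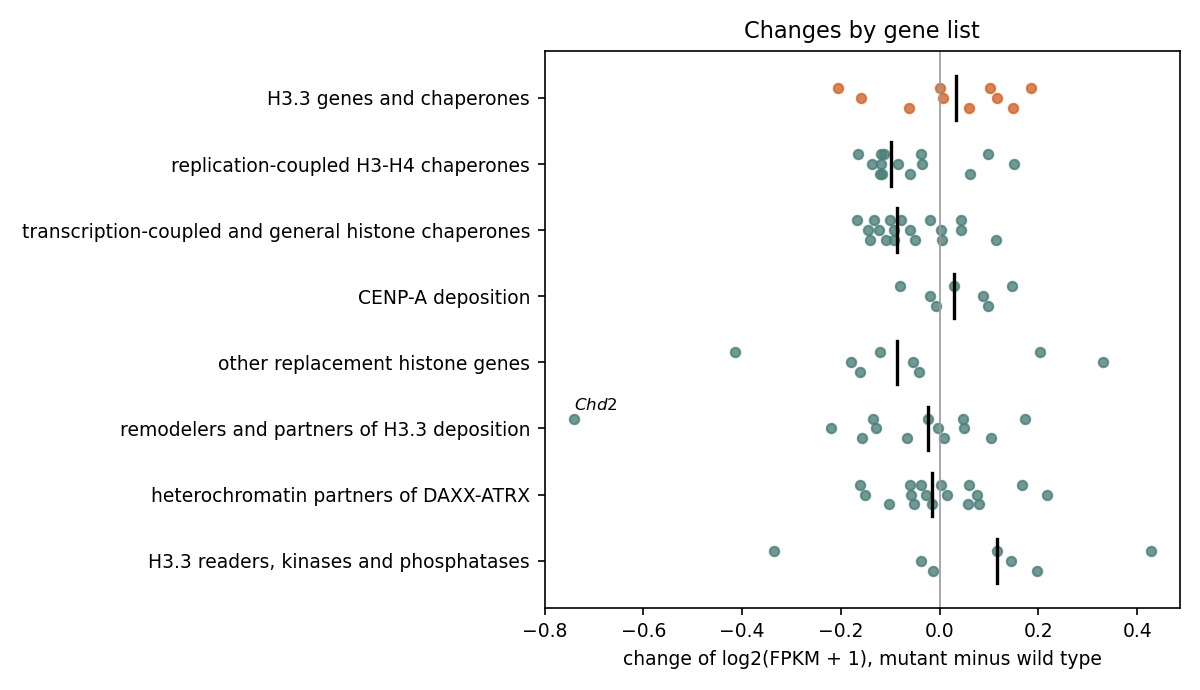
Change of log2(FPKM + 1), mutant minus wild type, for each gene whose mean reached 1 FPKM (points) in the 10 genes and 7 functional lists, with the median of each list as a black line. Chd2, at -0.74, is the only called gene shown, and the medians of the lists lie between -0.10 and 0.12.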

How the data were processed

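RNA-seq of mouse embryonic stem cells was analysed from the table deposited by the authors. The submitters' processing notes name the build mm9, the aligner TopHat2 (2.1.0), Cufflinks and bcl2fastq (2.17.1.14). Annotation, depth and the test behind the q-values were not given in the sources used here. For each gene and genotype the authors deposited 1 FPKM value, with a log2 fold change, a q-value and a call. The deposited log2 fold change equals the plain FPKM ratio for the 10 genes within 4.98e-06.

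Changes were computed as differences of log2(FPKM + 1), mutant minus wild type, which understates changes of low genes, in Python 3.11.15 (pandas 2.3.3, numpy 2.4.6). Lists were described over genes whose mean reached 1 FPKM by counts and medians; a planned limma fit needs library values and was not run. Of 126 list symbols 125 matched, older ones through RefSeq synonyms. The 10 genes and the lists were chosen with earlier results of these data known. Named genes were the 10, Chd2, and of each list the 3 with the highest mean FPKM, the 2 with the largest change and any call; of marker lists the 3 highest. One gene that this rule names is not reported here. Genes named outside this rule (other H3 copies, other markers, pseudogenes, overlapping genes, a gene with shared words) were chosen after their values were seen. Sequences came from GENCODE M21 and translations were aligned with Biopython 1.88. The change and quantile steps were run on the wild-type values with a known shift or scale applied and no noise, which checks the code only. Alternatives were other pseudocounts, scalings, expression minima and q limits.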

Additional observations from a re-analysis of the deposited data

How the results depend on the processing

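No paired analysis was possible because the table holds 1 value per genotype, and for the same reason no library could be left out. The count of called genes among the 10 was 0 with a q under 0.1 and with a q under 0.2. The median change of the 10 genes was 0.0703 after quantile normalization, 0.0730 with the upper quartiles set equal and 0.0770 relative to genes of like level, against 0.0330 as reported, and the cause was not tested. Of the 8 functional lists 5 had a median below 0, and 3 did with the upper quartiles set equal. The count was 6 with both genotypes scaled to the same sum and 6 with no expression minimum. At the minimum of 1 FPKM the list of replication-coupled H3 genes held 1 gene, so its median is the value of that gene. Of the 10 genes only Ubn2 changed sign, under the TPM scale, quantile normalization and the like-level comparison (-0.033). No scaling moved the median of all genes by more than 0.036. Without library values or depth, neither sampling error nor spread between libraries could be given for any level or change.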

Other observations

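Genes that deposit the centromeric H3 variant CENP-A, another replacement H3 with chaperones of its own, had no call among 7, with 4 above 0, 3 below and a median change of 0.03. Cenpa was at 95.5 FPKM in wild-type cells and 94.98 FPKM in mutant cells, Mis18a at 26.7 and 28.6 FPKM, Cenpc1 at 14.1 and 15.7 FPKM and Cenpn at 24.9 and 23.5 FPKM. The mutant value of Cenpa was thus 99.5% of the wild-type value.

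Readers, kinases and phosphatases that act on the H3 tail, where H3.3 carries its own residue 31, had no call among 7 genes, with 4 above 0 and a median of 0.12. Zmynd8, which encodes a chromatin reader, was at 21.1 FPKM in wild-type cells and 28.7 FPKM in mutant cells, or 1.36-fold higher in value with a q-value of 0.473 in the authors' deposited table. Aurka, the mitotic kinase gene, was at 72.3 and 57.1 FPKM with a q-value of 0.452 in the authors' deposited table. Aurkb was at 50.6 and 49.2 FPKM and the phosphatase gene Ppp1cc at 160.2 and 173.8 FPKM. Zmynd8 and Aurka differed by more than any of the 10 H3.3 and chaperone genes, in opposite directions, and neither was called.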
